A study of Mus musculus with 6 samples.

Results

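Oocyte transcription factors and zona genes, 10 of the 48709 genes in the count table, were followed in RNA of 13.5 dpc (days post coitum) mouse ovaries. They were found by matching their symbols in GENCODE M21 to the Ensembl identifiers of the counts, and they fall into 6 regulators (Taf4b, Sohlh1, Sohlh2, Lhx8, Figla and Nobox) and 4 targets (Gdf9, Zp1, Zp2 and Zp3). The ovaries came from CD1 embryos, wild type in all groups, and each of the 6 libraries was made from a separate pool of gonads. Dams of the 3 APAP+IBU pools were gavaged with acetaminophen (APAP, 30 mg/kg per day) and ibuprofen (IBU, 15 mg/kg per day) in alternation from 10.5 to 13.5 dpc, 4 times a day at 3 h intervals. Dams of the 3 control pools received the ethanol diluent on the same schedule. The titles of the exposed samples name ibuprofen alone, whereas their exposure label names both drugs. A pool mixes germ cells with the somatic cells of several gonads, so fewer germ cells and less RNA per germ cell cannot be told apart.

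The oocyte programme is a cascade of transcription factors that acts mainly around and after birth. SOHLH1 and SOHLH2, a pair of basic helix-loop-helix factors of germ cells, act upstream of LHX8, FIGLA and NOBOX, and FIGLA, which binds DNA together with the E protein TCF3, switches on the zona pellucida genes in primordial and growing oocytes. The question put to these libraries was how much of the cascade is already transcribed when germ cells of the fetal ovary are entering meiosis, and whether APAP+IBU exposure moved it.

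Promoters of these genes were searched for E-boxes, the 6-letter site CANNTG that helix-loop-helix factors bind and that reads the same on both strands. RefSeq promoters on GRCm38.p6, from 250 bases before to 50 after the start site, were matched for 6 of the 10 genes (Sohlh1, Sohlh2, Lhx8, Figla, Nobox and Zp3). For Figla the whole window lies inside the GENCODE M21 span of the gene, which starts at 86016171. The following 4 are shown because they are the windows with more than 1 E-box, and they belong to a zona target of FIGLA (Zp3) and to 3 of the regulators (Figla, Sohlh1 and Nobox). Capitals mark every CANNTG, written 5′ to 3′ on the strand of the gene.
Zp3, chr5:135979855-135980154 (plus strand): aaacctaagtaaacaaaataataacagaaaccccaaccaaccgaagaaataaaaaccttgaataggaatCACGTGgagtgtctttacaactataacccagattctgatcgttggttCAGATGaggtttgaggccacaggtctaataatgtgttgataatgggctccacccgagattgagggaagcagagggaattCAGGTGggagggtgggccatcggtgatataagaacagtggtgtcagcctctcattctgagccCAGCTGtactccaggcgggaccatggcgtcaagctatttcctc
Figla, chr6:86016941-86017240 (plus strand): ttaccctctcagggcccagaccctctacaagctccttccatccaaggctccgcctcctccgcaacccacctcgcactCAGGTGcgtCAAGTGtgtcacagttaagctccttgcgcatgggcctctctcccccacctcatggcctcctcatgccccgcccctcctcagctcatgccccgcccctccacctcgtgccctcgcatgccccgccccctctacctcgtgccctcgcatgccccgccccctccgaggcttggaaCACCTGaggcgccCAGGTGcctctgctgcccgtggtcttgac
Sohlh1, chr2:25847199-25847498 (minus strand): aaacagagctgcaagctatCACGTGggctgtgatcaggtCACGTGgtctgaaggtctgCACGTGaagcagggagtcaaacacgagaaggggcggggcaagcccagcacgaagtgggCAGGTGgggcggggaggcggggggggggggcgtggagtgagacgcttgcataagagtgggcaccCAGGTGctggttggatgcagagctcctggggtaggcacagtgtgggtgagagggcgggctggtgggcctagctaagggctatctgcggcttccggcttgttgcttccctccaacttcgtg
Nobox, chr6:43309505-43309804 (minus strand): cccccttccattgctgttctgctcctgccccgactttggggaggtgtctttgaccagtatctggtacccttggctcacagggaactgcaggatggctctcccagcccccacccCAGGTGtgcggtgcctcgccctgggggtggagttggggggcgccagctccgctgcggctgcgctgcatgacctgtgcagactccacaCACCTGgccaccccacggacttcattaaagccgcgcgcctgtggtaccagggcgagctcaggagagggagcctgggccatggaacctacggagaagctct

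In these windows CANNTG occurred 5 times for Sohlh1, 4 times for Figla and Zp3, 2 times for Nobox, 1 time for Sohlh2 and 0 times for Lhx8. Among 32851 promoters of the same length, 72.3% held at least 1 match and 17.6% held 3 or more. Of the 5 matches of Sohlh1, 3 read CACGTG, a form of the E-box contained in CANNTG that was found in 7.15% of all promoters and 3 or more times in 0.0883%. The first E-box of the Zp3 window, at position -181 from the start site, also reads CACGTG. The NOBOX element (TAATTG or TAATTA, both strands) matched none of the 6 windows and 12.4% of all promoters. These matches are letters in a window and not measured binding.

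Each library held 37811968 to 48954631 counts, and changes were tested with edgeR's quasi-likelihood test on the 20167 genes left by its filter on low counts. The defining markers of an ovary were present, Ddx4, a germ cell RNA helicase, at 191 to 268 CPM (read counts relative to the library total, with TMM normalisation), and Foxl2, a granulosa cell factor, at 0.944 to 8.16 CPM. Sox9, the defining marker of the testis cell list, was at 5.37 to 10.6 CPM. It was above Foxl2 in every library in CPM not divided by exon length, by 8.42 against 8.16 CPM in control replicate 1. As whole lists the order was the opposite. The granulosa cell list summed to 386 to 655 CPM in controls and 503 to 537 CPM after exposure. The testis cell list summed to 11.8 to 24.2 CPM and 10.2 to 12.2 CPM. Replicate 3 of each group stood apart by liver genes. There, 12 liver markers summed to 2001 CPM (control) and 3256 CPM (APAP+IBU), whereas the remaining 4 libraries had 195 to 567 CPM. Markers of spermatids, cells that a fetal ovary lacks, separated the groups. The summed level of 15 such markers was 53.3 to 171 CPM in controls and 4.70 to 10.04 CPM after exposure. Of the 15 markers, 14 had an unadjusted p under 0.05 in edgeR's test, all lower, against 3.21% of all tested genes. Their defining gene Prm1 was never at 0, at 5.71 to 35.9 CPM in controls and 0.197 to 0.789 CPM after exposure. Results are given for all 6 libraries and, where they differ, for replicates 1 and 2 of each group alone. This subset leaves out the libraries with the highest liver sums but keeps the spermatid difference. In it the spermatid markers summed to 171 and 54.8 CPM in controls and 10.04 and 4.70 CPM after exposure. Of the 15 markers, 15 were called lower there.

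The 10 genes differed widely in level, with Sohlh2 and Taf4b highest and the zona genes at a few reads. Levels of different genes were compared as CPM per kb of exon. Averaged over the 6 libraries, Sohlh2 had 42.2 CPM per kb, Taf4b 19.6, Figla 6.57 and Sohlh1 3.06. A second tier followed, with 0.304 CPM per kb for Gdf9, 0.299 for Lhx8 and 0.253 for Nobox. The zona genes were at the bottom, with 0.105 CPM per kb for Zp3, 0.0682 for Zp1 and 0.00621 for Zp2. Among protein-coding genes, 95.3% lay below Sohlh2, 86.8% below Taf4b, 65.7% below Figla and 53.5% below Sohlh1. For Gdf9, Lhx8 and Nobox this share was 33.1%, 32.9% and 31.7%, and for Zp3, Zp1 and Zp2 it was 25.8%, 23.4% and 14.4%. The step from Sohlh1 down to Gdf9 was 10.1-fold and the ranges of these genes over the libraries did not overlap. The ranges of Sohlh2 and Taf4b and those of Taf4b and Figla did not overlap either. Figla exceeded Sohlh1 in 6 of 6 libraries although their ranges overlapped. Gdf9, Lhx8 and Nobox could not be ordered, since Gdf9 was above Lhx8 in 4 of 6 libraries and Lhx8 above Nobox in 4 of 6. Zp3 was above Zp1 in 4 of 6 libraries, and both were above Zp2 in level per kb.

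**Figure D1:**
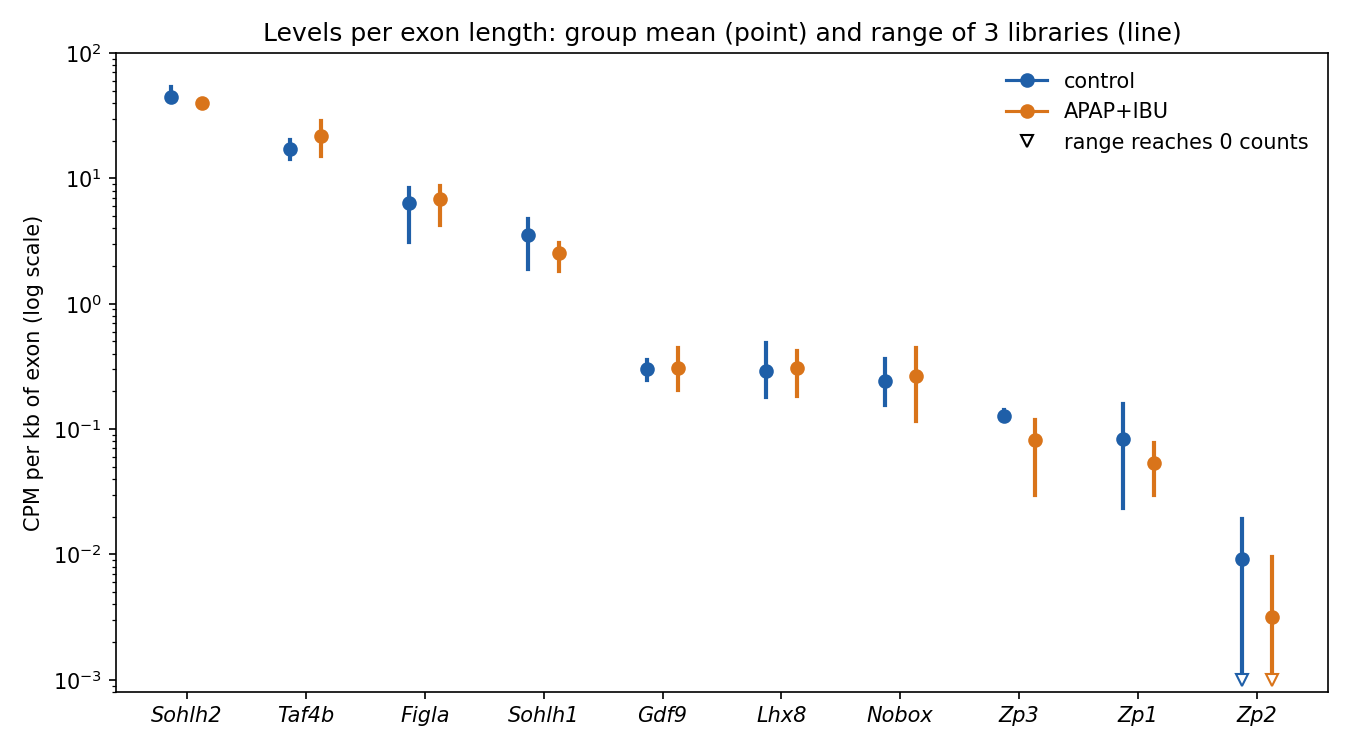
Level of each gene in CPM per kb of exon on a log scale, with the group mean as a point and the range of the 3 libraries as a line, for control and APAP+IBU ovaries. Sohlh2 and Taf4b lie at the top, a gap of 10.1-fold separates Sohlh1 from Gdf9, and the open triangles mark groups in which a library had 0 counts of Zp2.

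None of the members passed the test between exposed and control ovaries. Of the 10 genes, 7 passed the expression filter. At an adjusted p under 0.05 edgeR called 0 of these 7 and 0% of all 20167 tested genes, and at an unadjusted p under 0.05 the shares were 0 of 7 and 6.22%. DESeq2 on the same libraries, which called 0.868% of its genes, called 0 of the 10. In 9 of the 10 genes the levels of the groups overlapped, the exception being Zp3, with 2 to 7 counts per library. Over all tested genes, every exposed library lay above every control library for 4.78% and below for 5.92%. The median log2 fold change of the 7 tested genes was 0.077, beside -0.0047 over all tested genes.

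**Figure D2:**
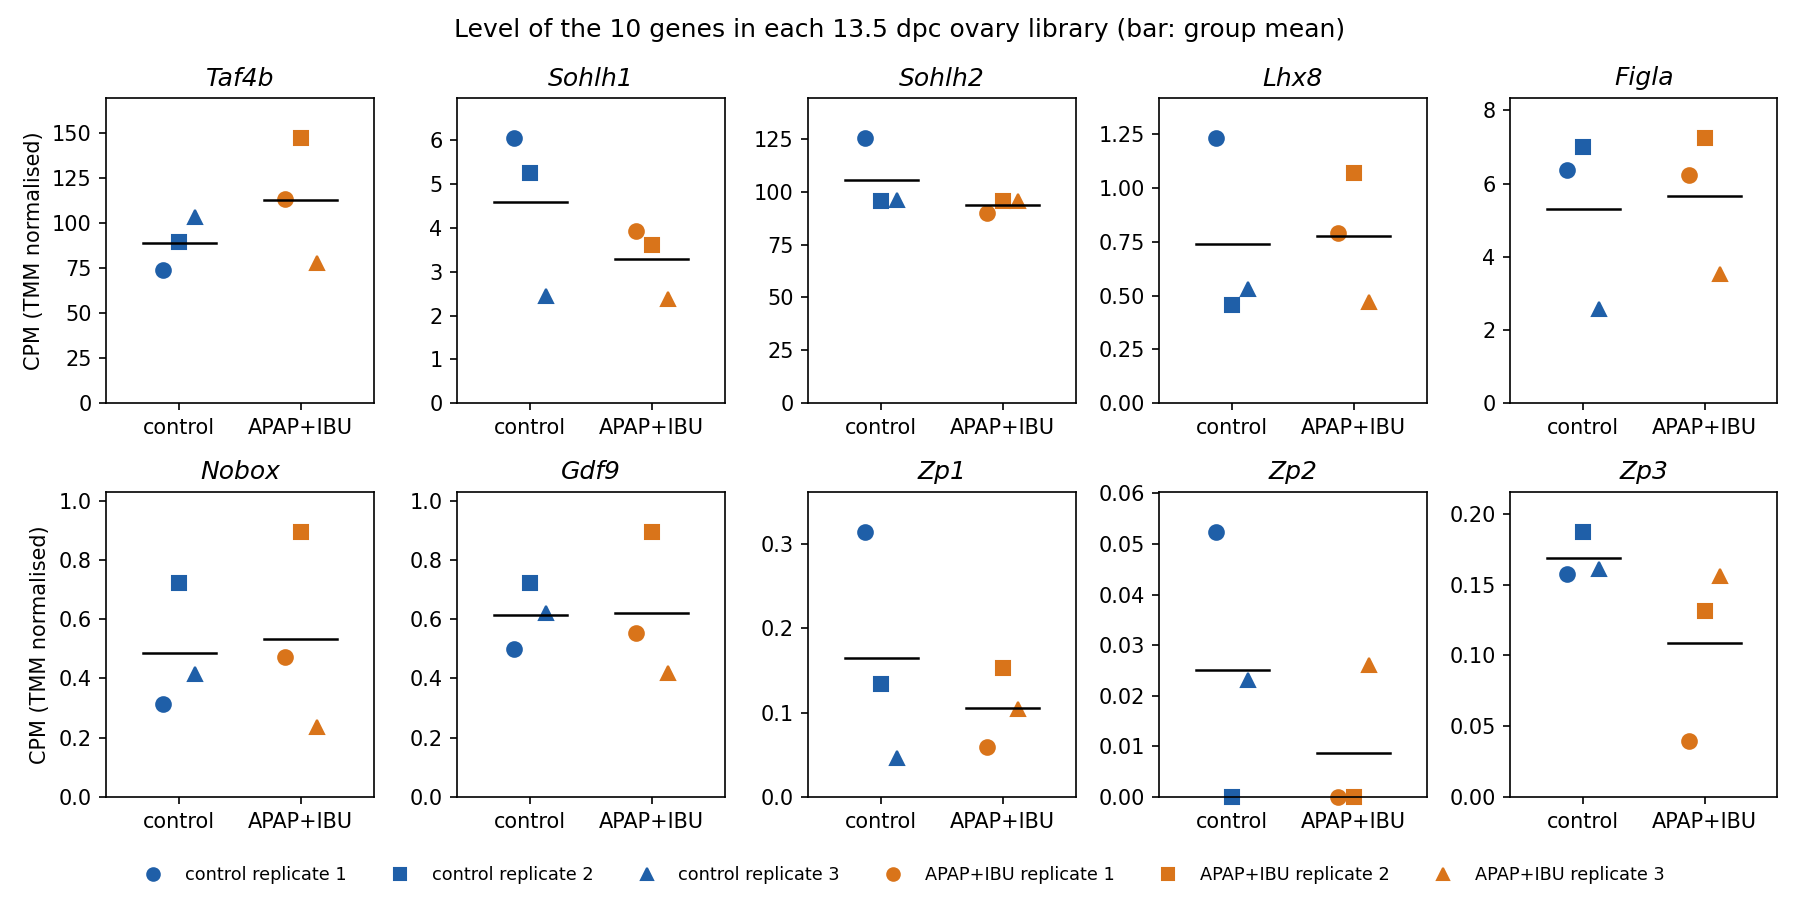
CPM of each of the 10 genes in every library, with 1 panel and 1 linear axis from 0 per gene, the replicates as symbols and the group mean as a bar. Control and APAP+IBU points overlap in 9 panels, and in the Sohlh1 and Figla panels the replicate 3 triangle of each group lies lowest.

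Sohlh2 (ENSMUSG00000027794) lies on chromosome 3 of GRCm38 from 55182028 to 55209957 and was the steadiest of the genes. It had 126, 95.7 and 95.9 CPM in control replicates 1, 2 and 3, and 90.1, 95.7 and 95.5 CPM in APAP+IBU replicates 1, 2 and 3. Control replicate 1 was highest and the other libraries lay within a narrow band. The log2 fold change was -0.17 (standard error 0.14, 95% interval -0.49 to 0.15, adjusted p = 0.713 in edgeR's test). Its partner Sohlh1 (ENSMUSG00000059625), on chromosome 2 from 25842995 to 25847248, had 6.06, 5.25 and 2.44 CPM in controls and 3.92, 3.60 and 2.37 CPM after exposure. The control replicate 3 value fell among the exposed ones, so the groups overlapped. Its log2 fold change was -0.47 (standard error 0.37, 95% interval -1.32 to 0.38, adjusted p = 0.710). In replicates 1 and 2 alone, the log2 fold change of Sohlh1 was -0.57 (adjusted p = 0.0961), and 0.025 (adjusted p = 0.952) with a correction of every library for length and GC content of the genes. Sohlh1 is a short, GC-rich gene, with 1289 bases of exon and 58.1% GC. Per kb, Sohlh2 exceeded Sohlh1 in 6 of 6 libraries, by 9.94-fold to 22.0-fold.

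Taf4b encodes a subunit of the general factor TFIID that is enriched in germ cells. The gene (ENSMUSG00000054321, chromosome 18 from 14783245 to 14900359) overlaps the span of another gene on its strand, AC133172.1, with which it shares 0 exon bases. It had 73.8, 89.4 and 103 CPM in control replicates 1, 2 and 3, and 113, 147 and 77.6 CPM in APAP+IBU replicates 1, 2 and 3. Exposed replicates 1 and 2 were above every control library, whereas exposed replicate 3 was below controls 2 and 3. With all 6 libraries its log2 fold change came to 0.34 (standard error 0.24, 95% interval -0.20 to 0.89, adjusted p = 0.699). Taf4b was the one member called in replicates 1 and 2 alone, where it was higher by 0.69 ± 0.15 (log2 fold change ± standard error) with an adjusted p of 0.0154 by edgeR. In that fit 27.2% of all 20633 tested genes were called, 14.2% being higher and 12.9% lower, beside 1 of the 7 members tested. With the length and GC correction, Taf4b had a log2 fold change of 0.48 and an adjusted p of 0.0533, in a fit that called 14.1% of genes, 5.72% of genes being called higher. Taf4b is long, with 5149 bases of exon and 45.7% GC. The summed level of 10 early meiosis genes was lowest in APAP+IBU replicate 3, the lowest exposed library of Taf4b, at 658 CPM, against 1133 and 1328 CPM in exposed replicates 1 and 2 and 776 to 992 CPM in controls. The part of meiotic stage in the Taf4b values was not tested.

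Figla (ENSMUSG00000030001, chromosome 6 from 86016171 to 86020996) had 6.37, 6.99 and 2.58 CPM in control replicates 1, 2 and 3. In APAP+IBU replicates 1, 2 and 3 it had 6.23, 7.25 and 3.54 CPM. The groups overlapped over nearly their whole range, and both replicate 3 libraries were below all others. Its log2 fold change was 0.098 (standard error 0.41, 95% interval -0.85 to 1.05, adjusted p = 0.940), and in replicates 1 and 2 alone it was 0.032 with an interval of -0.42 to 0.49. Sohlh1 shared this dip, and the other 8 genes did not have both replicate 3 libraries below the remaining 4. The liver markers were highest in the same libraries, and their part in the dip was not tested. The germ cell marker Ddx4 was highest in replicate 3 among the controls (268 CPM) and lowest in replicate 3 among the exposed libraries (224 CPM). The part of germ cell content in the dip was not tested.

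Lhx8 and Nobox, a LIM homeobox and a homeobox factor needed for primordial follicles to form and grow, were read from few counts. Lhx8 (ENSMUSG00000096225, chromosome 3 from 154306294 to 154330659) had 47, 17 and 23 counts in control libraries, or 1.23, 0.455 and 0.530 CPM. After exposure it had 40, 49 and 18 counts, or 0.789, 1.07 and 0.469 CPM. Control replicate 1 was the highest library and control replicate 2 the lowest, so the controls enclosed the exposed values. Nobox (ENSMUSG00000029736, chromosome 6 from 43303674 to 43309554) had 12, 27 and 18 counts in controls and 24, 41 and 9 counts after exposure, or 0.315, 0.723 and 0.415 CPM against 0.473, 0.895 and 0.234 CPM. APAP+IBU held both the highest and the lowest value of Nobox. The log2 fold changes were 0.077 for Lhx8 (95% interval -1.06 to 1.21, adjusted p = 0.961) and 0.15 for Nobox (95% interval -1.11 to 1.42, adjusted p = 0.930). Both intervals include changes of 1 log2 unit in either direction. Counting error alone gave narrower 95% intervals for the ratio of exposed to control summed counts, 0.809 to 1.46 for Lhx8 and 0.799 to 1.65 for Nobox.

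Among the targets, Gdf9 was the only one past the filter. It encodes a growth factor that oocytes secrete to drive follicle growth and lies on chromosome 11 from 53431023 to 53437904 (ENSMUSG00000018238). It had 19, 27 and 27 counts in controls (0.498, 0.723 and 0.622 CPM) and 28, 41 and 16 counts after exposure (0.552, 0.895 and 0.417 CPM). The exposed values enclosed the control values, and the log2 fold change was 0.021 (standard error 0.39, 95% interval -0.88 to 0.93, adjusted p = 0.989).

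The zona genes, which encode the glycoproteins of the coat around growing oocytes, gave 71 counts together out of 253566698 over the 6 libraries. Zp3 (ENSMUSG00000004948, chromosome 5 from 135980099 to 135988624) had 6, 7 and 7 counts in controls and 2, 6 and 6 after exposure. At 0.157 to 0.187 CPM against 0.0394 to 0.156 CPM, its control libraries were all above its exposed libraries. Control replicate 1 and APAP+IBU replicates 2 and 3 each had 6 counts, so only the scaling by library size sets them apart. The same order held for 5.92% of tested genes and the opposite order for 4.78%, though Zp3 itself did not pass the filter. An exact two-sided permutation test of log2 CPM gave p = 0.1, the smallest p that 3 libraries against 3 allow. From 20 and 14 summed counts, the ratio of exposed to control was 0.617 with an exact 95% interval of 0.288 to 1.28 for counting error only. Zp1 (ENSMUSG00000024734, chromosome 19 from 10914287 to 10920632) had 12, 5 and 2 counts in controls and 3, 7 and 4 after exposure, a ratio of 0.649 (exact 95% interval 0.301 to 1.37, counting error only). Its 2 extreme values were both controls. Zp2 (ENSMUSG00000030911, chromosome 7 from 120126772 to 120145291) had 2, 0 and 1 counts in controls and 0, 0 and 1 after exposure. Every library was below the floor of 3 counts for Zp2, and the groups summed to 3 and 1 counts. A library with 0 counts allows up to 0.0803 CPM in control replicate 2 and up to 0.0592 and 0.0655 CPM in APAP+IBU replicates 1 and 2. The spermatid markers were also lower in all 3 exposed libraries, and their part in the Zp3 values was not tested. No difference in the zona genes was detectable at this depth. Per kb, Figla exceeded Zp3 in 6 of 6 libraries, by 25.3-fold to 250-fold. The 250-fold value rests on 2 Zp3 counts in APAP+IBU replicate 1, below the floor of 3 counts.

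**Figure D3:**
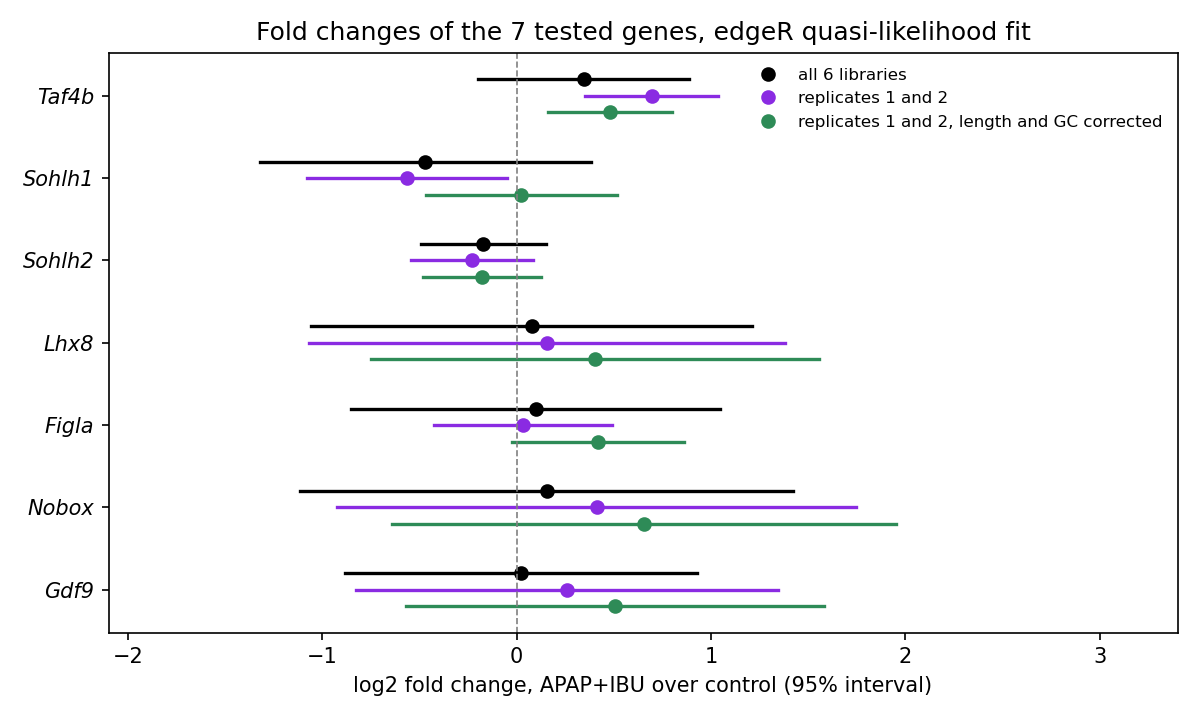
Log2 fold change of APAP+IBU over control with its 95% interval for the 7 tested genes, from all 6 libraries, from replicates 1 and 2 of each group, and from replicates 1 and 2 with length and GC correction. Each interval from all 6 libraries spans 0, and Sohlh1 moves from -0.57 to 0.025 with the correction.

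Since the genes are expressed in germ cells, each was also set against 7 germ cell markers (Ddx4, Dazl, Dnd1, Mael, Tdrd1, Gtsf1 and Rnf17). These markers summed to 825 to 1098 CPM in controls and 955 to 1177 CPM after exposure, and 0 of the 7 were called with all 6 libraries. In replicates 1 and 2 alone 3 of the 7 markers were called higher and 1 lower, where 27.2% of all tested genes were called. The log2 ratio of Sohlh2 to the mean log2 marker level had values of 0.75, 0.54 and 0.47 in the controls, and of 0.36, 0.35 and 0.48 in the exposed libraries. Taf4b had -0.020, 0.44 and 0.58 in controls against 0.69, 0.98 and 0.18 with exposure. These ratios use CPM without division by exon length, so they compare libraries and not genes. For Figla the mean was -3.84 ± 0.79 in controls and -3.71 ± 0.49 after exposure (SD, n = 3). For Sohlh1 it was -4.03 ± 0.68 and -4.45 ± 0.35, and for Nobox -7.19 ± 0.67 and -7.18 ± 0.85 (SD, n = 3). For 7 genes tested, exact two-sided permutation tests gave p from 0.2 (Sohlh2, a difference of -0.19) to 1 (Lhx8 and Nobox, differences of 0.10 and 0.0035), and 0.933 to 1 after Benjamini-Hochberg adjustment. The difference was 0.28 for Taf4b (exact p = 0.4) and -0.43 for Sohlh1 (exact p = 0.3), where 0.1 is the smallest p possible.

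**Figure D4:**
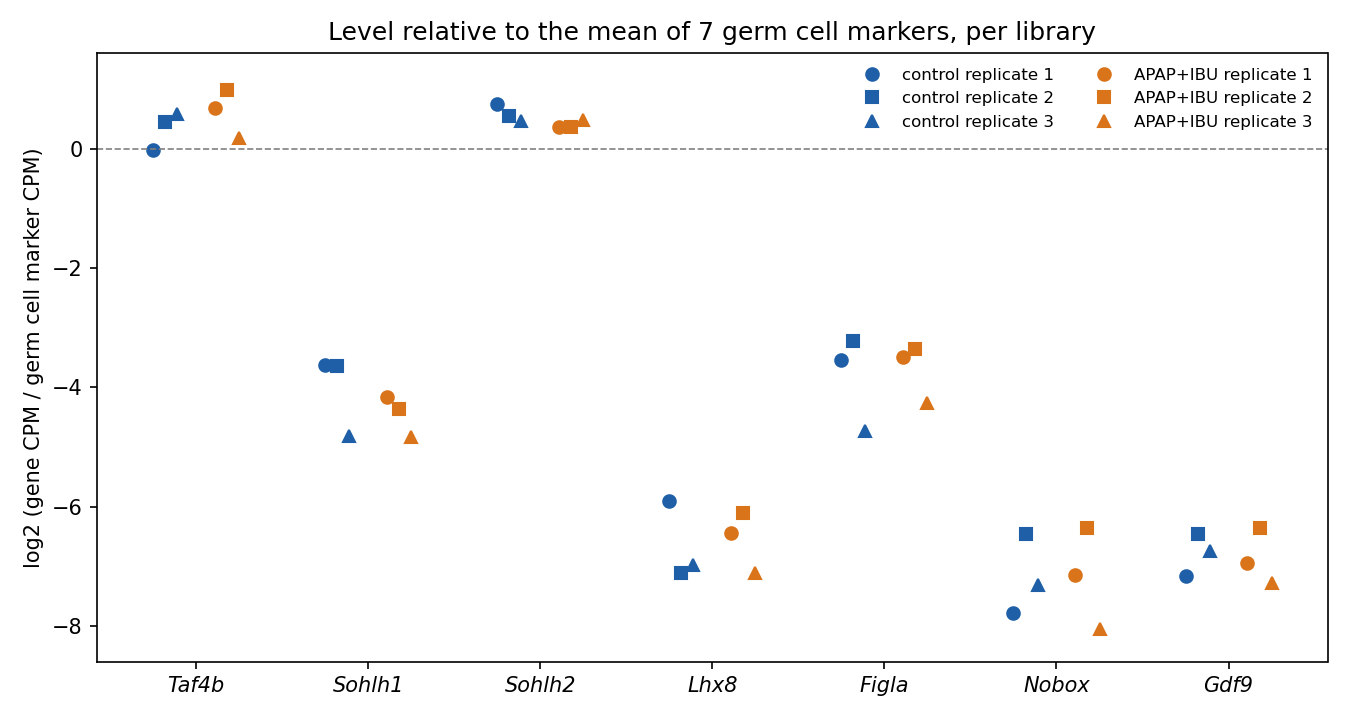
Log2 ratio of each tested gene's CPM to the mean of 7 germ cell markers in every library, without division by exon length, with symbols for replicates and a dashed line at 0. The groups overlap for each gene, and heights of different genes are not comparable.

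The relatives and partners of the regulators set the cascade in context. All 23 such genes were tested and 0 were called, and Tcf4 and Kitl had an unadjusted p under 0.05, both higher, against 3% of all tested genes in that direction. The median log2 fold change of the 23 genes was 0.11, beside -0.0047 over all tested genes. Taf4b exceeded its paralogue Taf4 in 6 of 6 libraries by 2.01-fold to 3.93-fold per kb. Taf7l, the germ cell paralogue of another TFIID subunit, exceeded Taf4b in 6 of 6. Taf7l had the highest level per kb of the list (70.7 CPM per kb), with 121, 164 and 103 CPM in controls and 215, 255 and 94.9 CPM after exposure. Its exposed replicates 1 and 2 were the highest libraries and its exposed replicate 3 the lowest, and among the exposed libraries this was also the order of Taf4b. The log2 fold change of Taf7l was 0.54 (standard error 0.34, adjusted p = 0.698). Tcf3, the E protein partner of FIGLA, exceeded Figla per kb by 4.15-fold to 10.5-fold, and its log2 fold change was -0.23 (adjusted p = 0.812). The LIM homeobox gene Lhx9, a factor of gonadal somatic cells, exceeded Lhx8 by 33.6-fold to 94.5-fold per kb, and Lhx2 exceeded it by 1.69-fold to 4.51-fold.

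Further members of the partner list had differences that were not called with all 6 libraries. Kitl, the ligand of the KIT receptor of germ cells, had 297 ± 66.4 CPM in controls and 416 ± 82.8 CPM after exposure (SD, n = 3, log2 fold change 0.49, adjusted p = 0.692 in edgeR's test). Tcf4, another E protein gene, had 107 ± 17.8 and 142 ± 23.6 CPM (SD, n = 3, log2 fold change 0.42, adjusted p = 0.692). Lhx9 and Taf9b had log2 fold changes of 0.29 and 0.39 and the same adjusted p. Id3, an inhibitor of E proteins, and Ldb1, the cofactor of LIM homeobox factors, had -0.20 and 0.092 (adjusted p = 0.828 and 0.856). In replicates 1 and 2 alone 11 of the 23 genes were called, 9 higher (among them Kitl, Tcf4, Lhx9, Taf9b and Taf7l) and 2 lower (Id1 and Id3), in a fit that called 14.2% of all genes higher and 12.9% lower. After length and GC correction 4 of the 23 were called, all higher (Taf4, Taf7l, Smad3 and Kitl), where 14.1% of all genes were called and 5.72% called higher.

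A list of 30 genes known from later oocytes and early embryos spanned as wide a range. Of these, 3 had 0 counts in all 6 libraries (Oosp1, Oog1 and Omt2a), 8 had 1 to 30 counts over the 6 libraries, 13 had more than 30 and fewer than 1000, and 6 had 1000 or more. The 6 abundant ones were Dppa3, Uchl1, Ybx2, Kit, Tle6 and Gja4, of which Kit and Gja4 are also made by other cells, Uchl1 by neurons and Dppa3 by germ cells before meiosis. Dppa3 was the only one above Sohlh2 in level per kb, by 1.01-fold to 1.97-fold in 6 of 6 libraries. Tle6, a component of the subcortical maternal complex of eggs, had 38.9, 42.8 and 27.0 CPM in controls and 37.5, 38.9 and 40.1 CPM after exposure, and per kb it exceeded Figla in 6 of 6 libraries. Ybx2, which binds stored germ cell messages, had 36.7 ± 3.94 CPM in controls and 35.1 ± 8.93 CPM after exposure (SD, n = 3). Bmp15, the oocyte growth factor closest to Gdf9, had 0.285 ± 0.172 and 0.527 ± 0.241 CPM (SD, n = 3), and Gdf9 exceeded it per kb in 6 of 6 libraries by 1.14-fold to 5.81-fold.

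**Figure D5:**
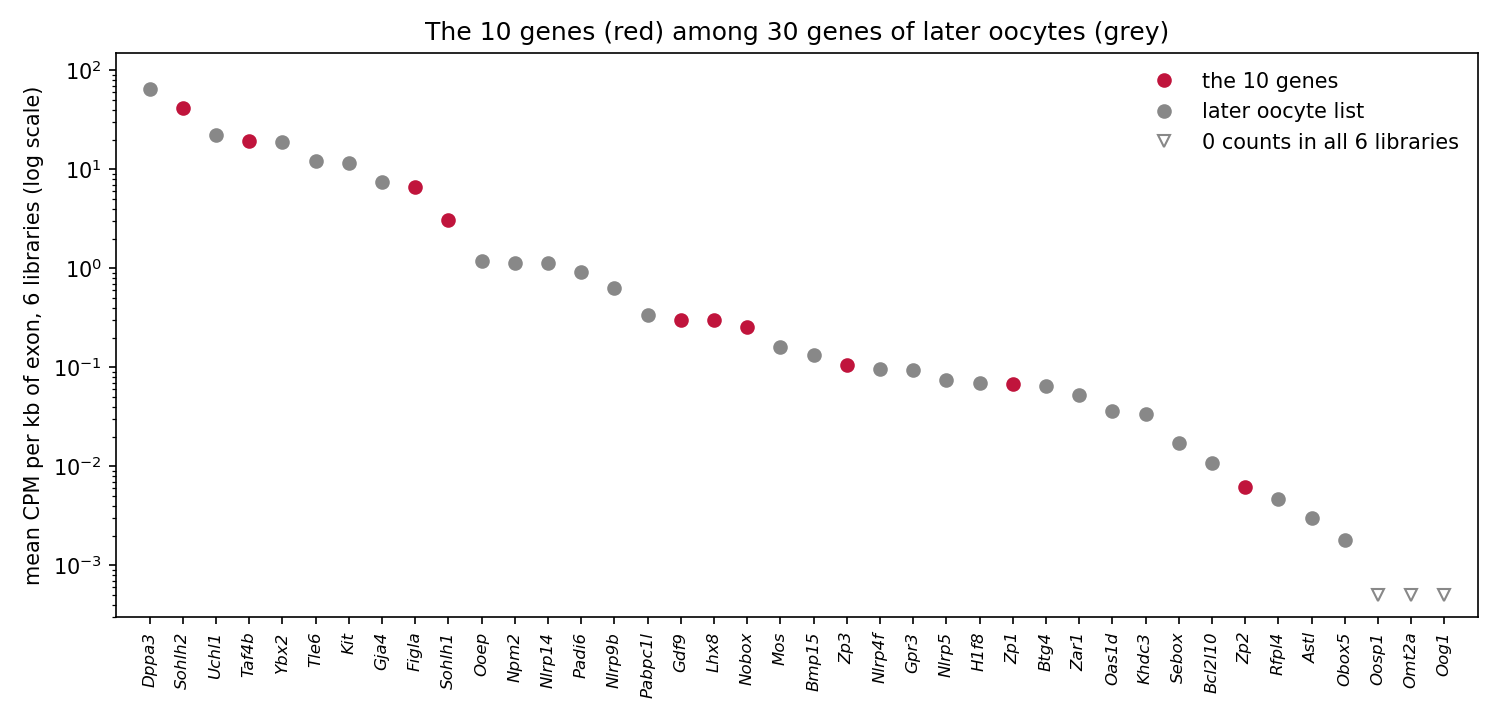
Mean level over the 6 libraries, in CPM per kb of exon on a log scale, of the 10 genes (red) and of 30 genes of later oocytes (grey), ordered by level. Only Dppa3 lies above Sohlh2, and open triangles mark the 3 genes with 0 counts in all 6 libraries.

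Of the 30 later oocyte genes 15 were tested and 0 were called. The median log2 fold change of these 15 was -0.061, with 6 values above 0 and 9 below. Dppa3 was the one with an unadjusted p under 0.05, with 93.5, 54.5 and 63.5 CPM in controls and 37.2, 36.3 and 60.4 CPM after exposure (log2 fold change -0.66, standard error 0.26, adjusted p = 0.692). The highest exposed library of Dppa3 lay between the controls. Uchl1 had a log2 fold change of -0.60 (adjusted p = 0.692) and Bmp15 one of 0.88 (standard error 0.56, adjusted p = 0.698). Ooep, a partner of Tle6 in the same complex, had 2.81, 2.84 and 3.41 CPM in controls and 1.30, 2.27 and 2.66 CPM after exposure. Every exposed library of Ooep was below every control library, as for 5.92% of all tested genes, and its log2 fold change was -0.54 (standard error 0.31, adjusted p = 0.692). In replicates 1 and 2 alone 4 of the 18 genes of this list that were tested were called, with Bmp15 higher and Gja4, Uchl1 and Dppa3 lower, a share no larger than the 27.2% of all genes called in that fit. With length and GC correction Ybx2 was called higher and Uchl1 and Dppa3 lower, where 14.1% of all genes were called.

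The tested genes whose libraries varied most like each member were sought among 16140 protein-coding genes, by the root mean square difference of log2 CPM after each gene was centred on its own mean over the 6 libraries. Trpc1 and Ovgp1 were nearest to Taf4b (0.055 and 0.059, against an SD of 0.37 for Taf4b itself). Arf6 and Snx18 were nearest to Sohlh2 (0.0374 and 0.0375), and Prr22 and Gm21964 to Sohlh1 (0.083 and 0.092). For Figla they were Prss50 and Psd (0.14 and 0.15, against an SD of 0.61). Lhx8 was nearest to Foxp3 and Asphd1 (0.15 and 0.21), Nobox to Lrrc6 and Cela2a (0.13 and 0.21) and Gdf9 to Fndc1 and Tstd1 (0.058 and 0.10). None of the 7 tested members was among the 2 nearest of another. Likeness over 6 libraries is a description of these libraries.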

How the data were processed

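Stranded mRNA libraries came from 3 control and 3 APAP+IBU pools. The authors mapped the reads to mm10 with TopHat2 2.0.14 and Bowtie2 2.1.0, counted them per Ensembl release 86 gene with HTSeq 0.6.1, and deposited raw counts without normalisation. The strand setting of the counting is not given in the sources used here. Groups came from the exposure label.

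The counts were fitted in R 4.3.3 by edgeR 4.0.16, using TMM scaling, its expression filter and its quasi-likelihood test on group, with Benjamini-Hochberg adjustment over the 20167 genes tested. DESeq2 1.42.0, in a later version than that of the authors, was tried as an alternative. Log2 CPM used a prior count of 1. Symbols, positions and exon lengths came from GENCODE M21 (GRCm38, the same assembly as mm10). The length and GC correction fitted a loess curve (span 0.3) in each library.

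The members, gene lists and tests were chosen with earlier results of these data known. Named genes are all members, in each of the later oocyte and partner lists the 4 with the highest level per kb and the 4 with the smallest p, the relatives Bmp15, Taf4, Tcf3, Lhx2 and Lhx9, and the 2 nearest patterns of each tested member. Other list genes named were chosen after their values were seen. Results of the marker lists for erythroid cells (7062 to 17240 CPM in controls, 3191 to 10220 CPM after exposure), testis cells (11.8 to 24.2 and 10.2 to 12.2 CPM) and granulosa cells (386 to 655 and 503 to 537 CPM) are summed levels. Of the tested genes of these lists 3 of 11, 3 of 5 and 0 of 8 had an unadjusted p under 0.05 in edgeR's test, all lower. Among all tested genes 3.21% were lower at this threshold. The erythroid list had 11 of its 12 genes in the table.

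In a library 3 counts equal 0.0592 to 0.0803 CPM. Exact intervals on counts cover counting error only. No duplicate library was found, the chi-square between libraries of a group being 17.2 to 143 times its degrees of freedom. The methods of the study describe separately processed pools, and p-values measure the spread between them.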

Additional observations from a re-analysis of the deposited data

How the results depend on the processing

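Over all tested genes, 0 were called by edgeR with all 6 libraries, and 1254 had an unadjusted p under 0.05. DESeq2 called 236, a fit to all genes with at least 1 count 120, replicates 1 and 2 only 5607, and those with length and GC correction 2910. Leaving out one library gave 0 to 1064 genes, the most without control replicate 3. Among the 10 members the count stayed at 0 except in replicates 1 and 2 only, where it was 1 (Taf4b, log2 fold change 0.69). The later oocyte list had 4 calls in replicates 1 and 2 only, 3 with the correction, and 0 to 1 with one library left out (Uchl1, without control replicate 3), and the partner list had 11 and 4. The cause of these changes was not tested. The replicate block called 2 genes, 49 with length and GC correction, and no member. Deviations of libraries with a shared number correlated at -0.07, -0.02 and -0.04, and 0 of 6 libraries correlated best with its own number, so the numbers were not used as a pairing.

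Taf4b and Sohlh2 kept their direction under every alternative run, but not their size. With one library left out Taf4b ranged from 0.093 (without APAP+IBU replicate 2) to 0.53 (without APAP+IBU replicate 3), and Sohlh2 from -0.24 to -0.032 (without control replicate 1). The log2 fold change of Sohlh1 was -0.12 with length and GC correction of all 6 libraries, 0.025 with that correction in replicates 1 and 2, and -0.77 (without control replicate 3) to -0.22 (without control replicate 1) with one library left out. Signs of genes near 0 changed with one library left out, with ranges of -0.23 to 0.66 for Lhx8, -0.23 to 0.34 for Figla, -0.44 to 0.55 for Nobox and -0.35 to 0.21 for Gdf9. Gdf9 was also at -0.0095 with upper quartile scaling and -0.027 with the replicate block. Relative to germ cell markers, leaving out one library gave differences of -0.12 to 0.485 for Lhx8, -0.32 to 0.43 for Figla, -0.41 to 0.44 for Nobox and -0.32 to 0.15 for Gdf9. Replicates 1 and 2 only gave -0.039 for Figla and 0.17 for Gdf9, and Nobox was at -0.086 against Ddx4 alone and -0.0003 with a prior count of 0.25. Depth limits the zona genes most, with 71 counts in all. Nobox had no value with at least 10 counts in every library.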
